A study of Danio rerio with 24 samples.

Results

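The dorsal organizer homeobox genes gsc, noto, dharma, lhx1a and hhex were examined in zebrafish embryos during the first hours of development. Members were the rows of the deposited array table whose only gene symbol in the probe annotation was one of these names. This gave 5 rows for 4 genes, out of 75212 rows in all. The gene lhx1a had 2 rows, gsc, noto and dharma had 1 each, and hhex was not analysed here because no row carried it as its only symbol. The study exposed wildtype (5D) embryos to 2 µM TDCIPP, an organophosphate flame retardant, or to vehicle (0.1% DMSO) from 0.75 hpf (hours post-fertilization), and collected them at 2 hpf (cleavage) or 6 hpf (early gastrula). The stage names are those of untreated embryos. The paper reports delayed or arrested epiboly in embryos exposed to TDCIPP at concentrations above and below that of the arrays. It states that toxicity at 6 hpf is of similar size at the array concentration and at the lower one. Most embryos at the lower concentration had delayed epiboly at 6 hpf. TDCIPP and vehicle embryos were thus matched by age. Whether a difference in stage contributes to their differences at 6 hpf was not tested. The arrays were run to look for transcripts that respond to TDCIPP on either side of the start of zygotic transcription. Each of the 4 groups held 3 pools of 25 whole embryos from separate beakers, and the RNA of each pool was hybridized to 2 Zebrafish Gene 1.0 ST arrays. Values are log2 signals from the authors' Robust Multichip Analysis (RMA), the 2 arrays of a pool were averaged, and ± gives the SD between pools.

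The organizer (embryonic shield) is the dorsal signaling center of the zebrafish gastrula. It forms where maternal Wnt/β-catenin signaling and Nodal signaling meet, and its cells secrete antagonists of BMP and Wnt ligands that leave dorsal cells with little BMP activity. Homeobox transcription factors act inside these cells. The gene dharma (bozozok) is a direct target of maternal β-catenin and encodes a repressor of ventral genes. Goosecoid (gsc) marks the organizer and the prechordal plate, noto (floating head) is needed for notochord fate, and lhx1a (lim1) encodes a LIM homeodomain factor of the organizer and mesoderm. The gene hhex is expressed in the dorsal yolk syncytial layer and the endoderm. Because RNA came from whole embryos, fewer organizer cells and less RNA per cell cannot be told apart.

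In vehicle embryos, maternal transcripts fell and germ layer genes rose between 2 and 6 hpf. Of 14 measured maternal transcripts, 12 fell, as did 19.9% of all tested clusters. All 9 enveloping layer, 7 of 7 endoderm, 7 of 8 ectoderm and 4 of 6 mesoderm markers rose (limma, adjusted p under 0.1), where 20.0% of all tested clusters did. Of 9 markers of later muscle, blood, nerve and neural crest cells, 1 rose. The markers and the gene lists below come from the 20856 clusters with 1 gene symbol. Tested alone, these clusters gave 3557 higher and 6928 lower calls, so falls were commoner than rises among them. Medians of the arrays were 4.32 to 4.46 at 2 hpf and 4.47 to 4.54 at 6 hpf. Every array correlated best with an array of its own time point, which was the other array of the same pool for 15 of 24 and an array of the other treatment for the remaining 9. No pool stood apart in its mean correlation with the other pools of its group, which was 0.992 to 0.994 for all 12.

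All 4 measured homeobox genes rose from 2 to 6 hpf in vehicle embryos, noto by far the most. Each of the 5 rows passed the test as higher (adjusted p from 1.6e-13 to 0.00082, limma with Benjamini-Hochberg adjustment over 61240 transcript clusters), where 20.0% of all tested clusters did, and its pools did not overlap between the time points, as for 22.6% of clusters on the higher side. The 5 rows also passed and did not overlap in TDCIPP embryos, where these shares were 20.7% and 24.5%. With every array centred on its median, which shifted the median change over all clusters from 0.01 to -0.11, 14.4% of clusters were called higher. The 5 rows passed under that scaling too.

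The gene dharma acts first of the 4, as the link from maternal β-catenin to the organizer. In vehicle pools its log2 signal was 4.92, 5.08 and 4.71 at 2 hpf and 5.73, 6.17 and 5.81 at 6 hpf. Every pool at 6 hpf was above every pool at 2 hpf, by a smaller step than for gsc, noto and the brighter lhx1a row. No age between 2 and 6 hpf was sampled, so levels in between are not known for dharma or the other genes. The step is thus not a measure of how strongly a gene was induced at its height. The rise was 1.00 on the log2 scale (SE, the standard error, 0.15, adjusted p = 8.9e-05), a 2.0-fold ratio of signals with a 95% interval of 1.60 to 2.49. In TDCIPP pools the signal was 4.83, 4.99 and 4.68 at 2 hpf and 5.75, 5.92 and 6.17 at 6 hpf, and the rise was 1.11 (SE 0.15, adjusted p = 3.3e-05).

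The signal of gsc in vehicle pools was 5.19, 4.78 and 4.57 at 2 hpf and 8.22, 8.20 and 7.96 at 6 hpf. The pools at 6 hpf thus lay well above all pools at 2 hpf. The rise was 3.28 (SE 0.15, adjusted p = 9.6e-10), or 9.69-fold. With TDCIPP the signal was 5.06, 4.75 and 4.76 at 2 hpf and 8.50, 8.22 and 8.38 at 6 hpf, a rise of 3.51 (SE 0.15, adjusted p = 5.3e-10).

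The largest rise of the 5 rows was that of noto, the notochord gene. Its signal in vehicle pools was 3.94, 3.99 and 3.73 at 2 hpf, below the medians of the arrays, and 9.81, 9.86 and 9.77 at 6 hpf. The rise was 5.92 (SE 0.10, adjusted p = 1.6e-13), a 60.8-fold ratio of signals. The deposited values come with no background level, so whether noto was above background at 2 hpf is not known. The ratio can be read only as a lower bound on the change. This limit holds for the ratios of dharma, gsc and lhx1a too. Among the markers of later cells, sox10 had the highest vehicle means, 6.04 at 2 hpf and 6.20 at 6 hpf, above those of dharma. With TDCIPP the signal of noto was 3.80, 3.77 and 4.00 at 2 hpf and 9.94, 9.86 and 10.08 at 6 hpf, a rise of 6.10 (SE 0.10, adjusted p = 1.5e-13).

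The brighter row of lhx1a (transcript cluster 13026269) had vehicle signals of 5.33, 5.12 and 5.71 at 2 hpf and 8.58, 8.85 and 7.92 at 6 hpf. It rose by 3.06 (SE 0.26, adjusted p = 4.8e-07), or 8.37-fold. At 6 hpf its vehicle pools were more scattered than those of the other genes (SD 0.48), while at 2 hpf its SD (0.30) was close to that of gsc (0.32). With TDCIPP the values were 5.71, 5.17 and 5.91 at 2 hpf and 8.13, 8.90 and 8.73 at 6 hpf, a rise of 2.99 (SE 0.26, adjusted p = 6.3e-07). The other row (13020675) was dim, with vehicle signals of 3.12, 3.04 and 3.01 at 2 hpf and 3.68, 3.84 and 3.52 at 6 hpf, below the medians of the arrays at both times. Both rows rose, but the dim row only by 0.62 (SE 0.12, adjusted p = 0.00082). The mean of both rows rose by 1.84.

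**Figure D1:**
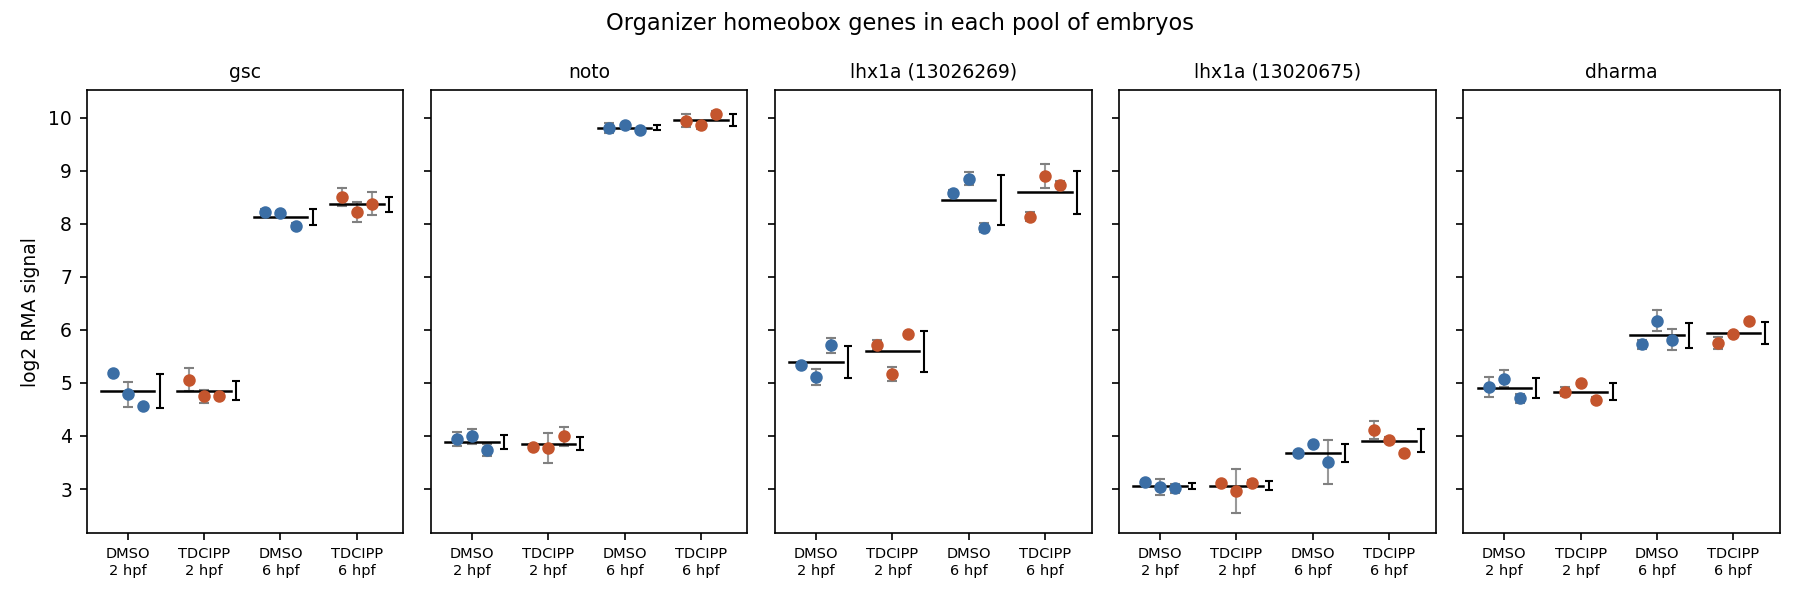
Log2 RMA signal (y axis) of the 5 member rows in the 4 groups (x axis). Each dot is a pool, grey bars join its 2 arrays, horizontal lines are group means and black bars are ± 1 SD over the 3 pools. All 6 hpf pools lie above all 2 hpf pools in each panel, and noto goes from 3.89 to 9.81 in DMSO embryos.

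The order of the rises in vehicle embryos was noto, gsc, the brighter lhx1a row, dharma and the dim lhx1a row. The interval of noto (5.70 to 6.15) was clear of that of gsc (2.95 to 3.61). The intervals of gsc and lhx1a (2.49 to 3.64) overlapped, and so did those of dharma (0.68 to 1.32) and the dim lhx1a row (0.36 to 0.88), so the order within each of these pairs is not settled. Probe sets differ in how far they compress a change and in how near their 2 hpf signal is to background, so this order describes the rows of the array and not the number of transcripts. Among all tested clusters, 0.191% had a larger rise than noto, 1.56% a larger rise than gsc, 1.74% than lhx1a and 6.69% than dharma.

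**Figure D2:**
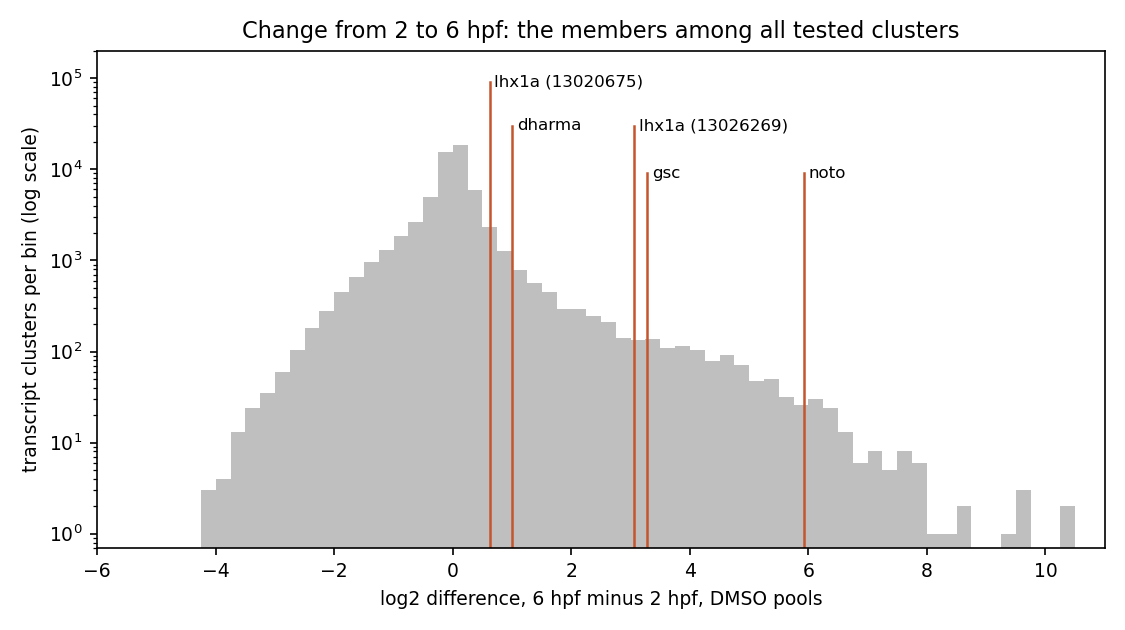
Number of transcript clusters (y axis, log scale) by their log2 difference between 6 and 2 hpf in DMSO pools (x axis, bins of 0.25), with the 5 member rows as vertical lines. The row of noto (5.92) sits far in the right tail, and dharma (1.00) and the dim lhx1a row (0.62) lie next to the bulk of the clusters.

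Over the 12 pools, the profile of noto was nearest to those of lrwd1, foxa3, a forkhead gene of axial mesoderm and endoderm, and asb11, with root mean square differences of 0.15, 0.17 and 0.17 log2 units once each gene's own mean was subtracted. Those nearest to gsc were aqp3a, a water and glycerol channel gene, slc6a7 and tacc1 (0.16 to 0.20), and those nearest to lhx1a were the protocadherin gene pcdh8, dspa and the ephrin gene efnb2a (0.23 to 0.24). In DMSO embryos the genes near noto rose by 5.56, 6.18 and 6.28, and rises close to that of noto follow from how these genes were picked. With array 1 of each pool alone, 0 of the 3 names for noto and 1 of the 3 each for gsc and lhx1a were kept, and with array 2 alone 2 of the 3 for noto and 1 each for gsc and lhx1a. The rise of dharma was just under the 1 log2 unit required for this search.

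At 2 hpf, none of the 4 genes passed the test for a difference between TDCIPP and vehicle embryos. The vehicle and TDCIPP means were 4.90 ± 0.18 and 4.83 ± 0.16 for dharma, 4.85 ± 0.32 and 4.86 ± 0.18 for gsc, and 3.89 ± 0.14 and 3.86 ± 0.12 for noto (n = 3 pools each). For the brighter lhx1a row they were 5.39 ± 0.30 and 5.60 ± 0.38. Log2 differences (TDCIPP minus DMSO) ran from -0.07 for dharma to 0.21 for lhx1a, and every adjusted p was 1.00 (limma). None of the 5 rows had pools of the groups apart, where 7.39% of all clusters did. The 95% interval was -0.36 to 0.22 for dharma, -0.37 to 0.38 for gsc, -0.28 to 0.22 for noto and -0.26 to 0.69 for lhx1a. No cluster of the array passed an adjusted p under 0.1 at this time (0%), and 2.77% had an unadjusted p under 0.05, none of them a member.

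At 6 hpf, all 5 rows had a higher mean with TDCIPP, none passed the test, and the sizes were small. Of all tested clusters, 49.8% had a higher mean with TDCIPP. The log2 difference was 0.24 for gsc (SE 0.12, adjusted p = 0.931, limma), from means of 8.12 ± 0.15 and 8.37 ± 0.14 (n = 3 pools each). This is 1.18-fold, with an interval of 0.98 to 1.43. It was 0.07 with array 1 of each pool alone and 0.42 with array 2 alone. For noto it was 0.15 (SE 0.10, adjusted p = 0.951), from 9.81 ± 0.04 to 9.96 ± 0.11, or 1.11-fold with an interval of 0.94 to 1.30. Single arrays gave 0.10 (array 1) and 0.20 (array 2) for noto, and leaving out 1 pool gave 0.09 to 0.20.

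The pools of gsc and noto did not overlap at 6 hpf, with every TDCIPP pool above every vehicle pool. The margin was 0.0021 for gsc, between 8.217 and 8.219, and 0.0036 for noto, between 9.855 and 9.859, both far smaller than the spread between pools. Such a separation on the higher side was found for 5.46% of all clusters.

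For dharma the means were 5.90 ± 0.24 and 5.95 ± 0.21, which differed by 0.04 (SE 0.15, adjusted p = 0.994), and the pools were interleaved. The highest and the lowest pool of all 6 were both vehicle pools. Its sign turned with array 2 of each pool alone (-0.08) and in 3 of the fits that left out 1 pool, without DMSO replicate 1 (-0.04), DMSO replicate 3 (-0.0013) or TDCIPP replicate 3 (-0.07). The brighter lhx1a row had means of 8.45 ± 0.48 and 8.59 ± 0.41 and a difference of 0.14 (SE 0.26, adjusted p = 0.983), with an interval of 0.73- to 1.66-fold. The difference was -0.12 without DMSO replicate 3 and -0.02 without TDCIPP replicate 2. The dim row differed by 0.23 (SE 0.14, adjusted p = 0.948), with 0.42 from array 1 alone, 0.03 from array 2 alone and 0.13 to 0.34 when leaving out 1 pool. No cluster passed an adjusted p under 0.1 at 6 hpf (0%), and 5.48% had an unadjusted p under 0.05, none of them a member (the smallest was 0.075, for gsc). The paper does report affected transcripts at this age. Some of the alternative fits described below also called clusters, none of them a member.

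**Figure D3:**
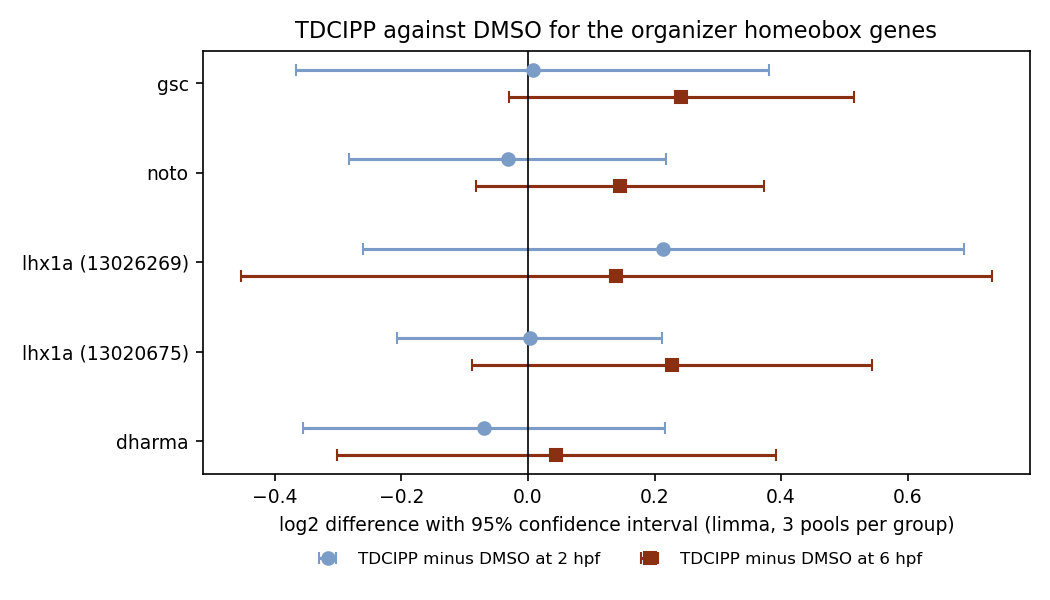
Log2 difference between TDCIPP and DMSO pools (x axis, points) with its 95% confidence interval (bars) for the 5 member rows (y axis) at 2 and 6 hpf. Every interval includes 0, and the differences at 6 hpf lie between 0.04 and 0.24.

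The difference between the effects at 6 and 2 hpf was also tested. It was 0.23 for gsc, 0.18 for noto, 0.11 for dharma, -0.07 for lhx1a and 0.23 for its dim row, each with an adjusted p of 1.00 (limma, interaction term over 12 pools). No cluster of the array passed this test (0%), and 4.32% had an unadjusted p under 0.05, none of them a member. The intervals reached from -0.23 to 0.70 for gsc and from -0.13 to 0.49 for noto.

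At 6 hpf the vehicle pools spanned 0.92 for the brighter lhx1a row and 0.44 for dharma, more than the TDCIPP differences of these rows (0.14 and 0.04). They spanned 0.26 for gsc, close to its difference of 0.24, and 0.08 for noto, less than its difference of 0.15. The TDCIPP pools spanned 0.28 for gsc and 0.22 for noto, more than the difference in both genes. DMSO replicate 3 had the lowest value of all 6 pools at 6 hpf in 4 of the 5 rows (gsc, noto and both rows of lhx1a), and in the brighter lhx1a row it lay 0.53 below its group's mean. Without this pool, the TDCIPP difference of gsc was 0.16, and the gene did not pass. Among TDCIPP pools, replicate 1 was the highest for gsc (8.50) and the lowest for lhx1a (8.13), so the order of the pools was not shared by the members. The SD over pools within groups was 0.40 for lhx1a, 0.21 for gsc, 0.20 for dharma and 0.11 for noto, while the 2 arrays of a pool differed by a median of 0.19, 0.18, 0.18 and 0.20 in the same order.

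**Figure D4:**
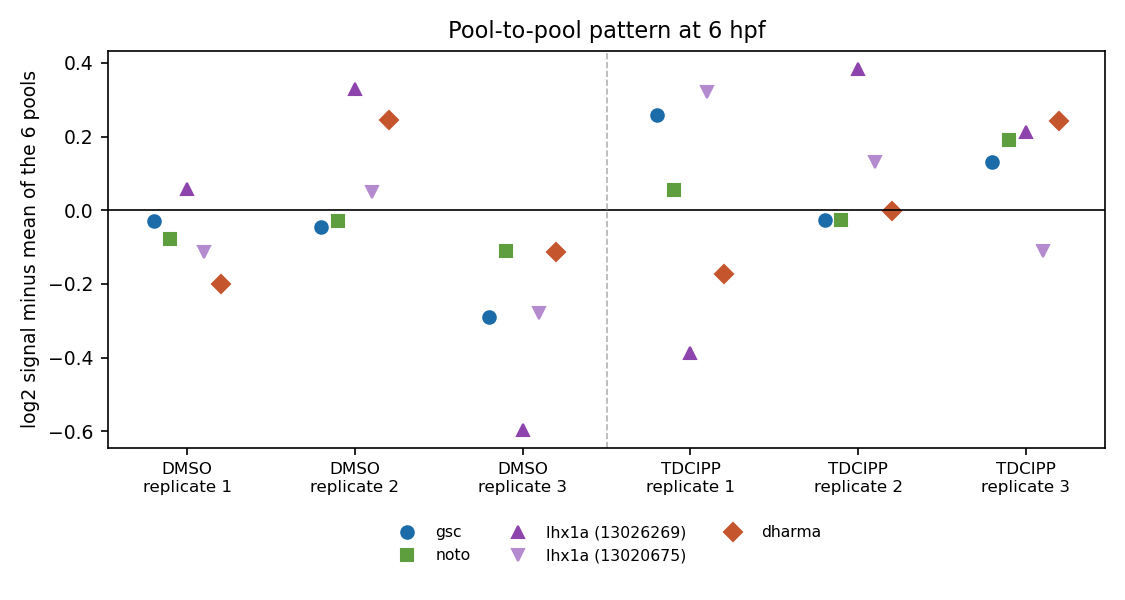
Log2 signal of each member row in the 6 pools of 6 hpf (x axis) after the mean of those pools is subtracted (y axis). All 5 rows are below 0 in DMSO replicate 3, and TDCIPP replicate 1 is high for gsc but low for the brighter lhx1a row.

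Genes of the Wnt/β-catenin and Nodal pathways, with targets and feedback inhibitors of these pathways among them, had small differences of both signs at 6 hpf. Among 17 measured genes of the maternal Wnt and β-catenin pathway, 10 had a higher and 7 a lower mean with TDCIPP, with a median log2 difference of 0.01 against -0.00073 over all clusters. None passed over all clusters, and those with the smallest p were axin2, a feedback inhibitor of the pathway (-0.22), dvl3a (-0.18), the target gene sp5a (-0.30) and the Wnt antagonist gene dkk1b (-0.14). The sign of dkk1b turned with array 2 of each pool alone (0.06) and without DMSO replicate 2 (0.09). From 2 to 6 hpf in vehicle embryos, 7 of these 17 genes rose and 6 fell, where 20.0% of all clusters rose and 19.9% fell. Of the 20856 clusters with 1 gene symbol, tested alone, 3557 rose and 6928 fell. In the Nodal pathway, 9 of 14 genes had a higher and 5 a lower mean with TDCIPP (median 0.03), and none passed. The smallest p was that of tdgf1, the Nodal co-receptor (0.34, standard error 0.10, adjusted p = 0.784), followed by sebox (0.34), mixl1 (-0.18) and smad3a (0.24). Over time 9 of the 14 rose and 3 fell, beside the same shares of all clusters.

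The proteins that organizer cells secrete had a wider range than the homeobox genes. Of 11 measured genes, 8 had a higher and 3 a lower mean with TDCIPP, with a median of 0.05 that ran from -0.02 to 0.15 when 1 pool was left out, and none passed over all clusters. With a minimum mean log2 signal of 5, which left out frzb, fsta, fstb and shha, the median was 0.50, the value of sfrp1a. Above it were chrd, nog1 and admp, described next, and below it fgf8a (0.03), fgf3 (0.0033) and dkk1b (-0.14). In vehicle embryos fsta, fstb and shha were not called as changed from 2 to 6 hpf. For chrd, the BMP antagonist Chordin, the log2 signal was 9.64 to 9.70 in vehicle and 10.07 to 10.53 in TDCIPP pools, a difference of 0.65 (SE 0.13, adjusted p = 0.570). With all arrays in the fit and pools as a random block, chrd was called (limma, adjusted p = 0.038). The correlation between arrays of a pool was only 0.060 in that fit, which therefore counted them nearly as separate samples. With each array as a sample, chrd was called as well (limma, adjusted p = 0.029). The methods' own test over arrays called chrd too. The paper lists this gene, as chd, among its affected transcripts, higher with TDCIPP. The other 3 with the smallest p differed by 0.57 for nog1, another BMP antagonist gene, 0.53 for admp, a BMP-like ligand gene of the organizer, and 0.50 for the Frizzled-related gene sfrp1a. These are larger than the difference of gsc (0.24), but whether they differ from it was not tested. For sfrp1a the TDCIPP difference was 0.63 already at 2 hpf, where its vehicle pools ran from 4.78 to 7.10 and it did not pass.

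A list of other transcription factors of the organizer and axial mesoderm had 15 higher and 4 lower means among 19 measured genes (median 0.08), and none passed. It also holds genes that are not particular to those cells, such as pou5f3, with a vehicle mean of 10.77 already at 2 hpf. The split is thus not a measure of the organizer alone. The genes of the list with the smallest p were foxd3, a forkhead repressor gene (0.59, standard error 0.17, adjusted p = 0.781), lhx5 (0.47), irx1a (0.23) and otx2b (-0.40). The signal of otx2b at 6 hpf, 3.62 in vehicle and 3.22 in TDCIPP embryos, was below the medians of the arrays. In vehicle embryos neither irx1a (-0.05) nor otx2b (0.08) was called as changed from 2 to 6 hpf. Over time 12 of these 19 rose and none fell (20.0% and 19.9% of all clusters). On the opposing side, 10 of 12 measured ventral and ventrolateral genes had a lower mean with TDCIPP and 2 a higher one, with a median of -0.42, and none passed. This count holds for the listed genes only. Of ectoderm genes outside this list, singled out after their values were seen, foxi1 (1.33) and tfap2a (0.68) were higher and tfap2c (-1.61) was lower. None of these passed. No row was matched to szl, ved, wnt8a and draculin, which the list also names. The paper reports szl as its most affected transcript, lower with TDCIPP. Of the 12 measured genes, the 4 with the smallest p were the BMP ligand genes bmp4 (-1.30, standard error 0.30, adjusted p = 0.681), bmp7a (-0.43) and bmp2b (-0.42), and vent (-0.80), a homeobox repressor gene of ventral cells. In the fit with pools as a random block, bmp4 was called too (adjusted p = 0.093). Without adjustment, 8 of the 12 ventral genes were lower at p under 0.05, where 2.82% of all clusters were. These include msx3, with 6 hpf means of 3.82 in vehicle and 3.05 in TDCIPP embryos, below the medians of the arrays. They also include tp63, which fell from 2 to 6 hpf in vehicle embryos (-0.69). Of the 11 secreted proteins, 4 were higher at that p, where 2.66% of all clusters were. At the same p, 0 of 17 genes of the Wnt and β-catenin list differed. In the Nodal list 1 of 14 was higher, as were 2 of 19 other transcription factors, and none was lower. The lists were chosen with earlier results of these data known, so these counts are a description and not a test.

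**Figure D5:**
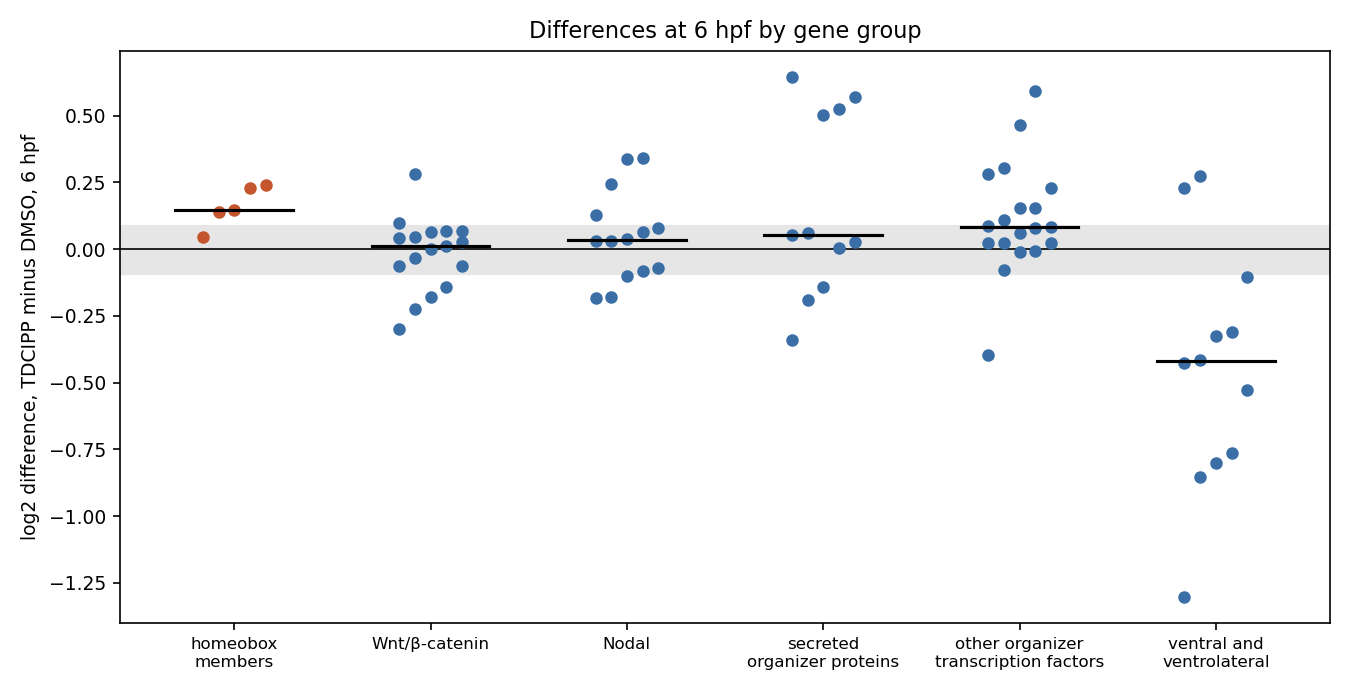
Log2 difference between TDCIPP and DMSO pools at 6 hpf (y axis) for the 5 member rows and the measured genes of 5 lists (x axis). Dots are genes (dkk1b and sp5l stand in both the Wnt/β-catenin list and another one), lines are medians and the grey band spans the first to the third quartile of all clusters. The members lie between 0.04 and 0.24, while the secreted proteins reach 0.65 and the ventral genes -1.30.

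Markers of the tissues of the embryo were measured beside the homeobox genes. The yolk syncytial layer markers, of interest for dharma, had 4 higher and 3 lower means among 7 genes at 6 hpf with TDCIPP, and their summed log2 level was 11.03 to 11.33 in vehicle and 11.16 to 11.31 in TDCIPP pools. From 2 to 6 hpf in vehicle embryos, 4 of these 7 rose, where 20.0% of all clusters did. As for 19.9% of all clusters, 1 of them fell (rrbp1b, 10.10 to 8.30), and apoa1a and apoa2 were not called. The split and the summed level include these genes. The endoderm markers summed to 11.28 to 11.79 and 11.40 to 11.59. For both lists the pools of the groups overlapped. All 9 enveloping layer markers had a higher mean with TDCIPP, with summed levels of 13.24 to 13.39 and 13.46 to 13.73, and 3 had an unadjusted p under 0.05. The 8 ectoderm markers split into 4 higher and 4 lower, 2 and 1 of them at an unadjusted p under 0.05, and summed to 11.23 to 11.54 in vehicle and 11.52 to 11.96 in TDCIPP pools. The widest of these differences, singled out after their values were seen, were -1.61 for tfap2c (adjusted p = 0.321, limma) and 1.33 for foxi1 (adjusted p = 0.548). Of 6 mesoderm markers 4 were higher and 2 lower, and both of the latter, tbx16 (-0.26) and eve1 (-0.85), had an unadjusted p under 0.05. Their summed level was 12.27 to 12.58 and 12.21 to 12.33. No marker of these 5 lists passed the test over all clusters. Of all clusters, 49.8% had a higher mean with TDCIPP, and 2.66% were higher and 2.82% lower at an unadjusted p under 0.05. The part of these tissues in the values of gsc and noto was not tested.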

How the data were processed

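Embryo pools were profiled on one-color Zebrafish Gene 1.0 ST arrays. From the scans, the authors made a log2 signal for each transcript cluster with RMA in Expression Console, and deposited it. Versions of that software are not given in the sources used here. RMA includes quantile normalization, so changes over time are relative to the other clusters. Of 75212 rows, 13972 below the first cluster ID of the study's own table carry no gene and were left out, which left 61240. Symbols came from the array annotation (20856 rows with 1 symbol), 20323 of them matched to current names by gene ID. In gene lists, the brightest row on average stood for a gene with several.

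The 2 arrays of a pool were averaged. TDCIPP was compared with DMSO within each time point, and changes over time and the difference of effects came from a fit of all 12 pools, by two-sided limma tests (version 3.58.1, R 4.3.3) with Benjamini-Hochberg adjustment and a threshold of 0.1. The precision is limited by the number of arrays and pools. Exact permutation was not used, since with groups of 3 its smallest two-sided p is 0.1. The fits were tested on simulated pools with independent noise and with changes larger than the TDCIPP differences of the members, so that test does not cover differences of their size. Figures were drawn with matplotlib 3.10.9.

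The members and gene lists were chosen with earlier results of these data known. Of each list, the 4 genes with the smallest p at 6 hpf are named, and for each member that changed by at least 1 log2 unit over time the 3 genes with the nearest profile. Genome positions and sequences are not used here. Alternatives covered blocks for the replicate number or the pool, single arrays, the methods' ANOVA, a spread shared by all groups, eBayes options, scaling, filters and leaving out each pool. Pools of the same number were not treated as paired.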

Additional observations from a re-analysis of the deposited data

How the results depend on the processing

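All 5 member rows were called as higher from 2 to 6 hpf, in DMSO and in TDCIPP embryos, under every alternative that kept the row, and none was called for TDCIPP against DMSO or for the difference of effects under any of them. With 3 pools a group, the precision of each TDCIPP difference is that of its printed interval. A minimum signal of 5 left out the dim lhx1a row. The labels do not say that pools of 1 number share a batch. The correlation of their deviations from group means was 0.09 to 0.18 at 6 hpf, where pools of different numbers gave -0.13 to 0.010 and every pool correlated best with its own number. At 2 hpf it was 0.05 to 0.25, against -0.22 to 0.081, and not every pool did. As 1 pair at each time was under 0.1, the pools were not treated as paired. With the replicate block, 0 clusters were called for TDCIPP against DMSO at 6 hpf, and the block changed no call of a member. Over all clusters, calls at 6 hpf were 52 with the pool as a random block, 82 with each array as a sample, 68 with the methods' ANOVA, 17 with a spread shared by the 4 groups, 14 with eBayes trend and robust options, 1 with array 1 alone, and 0 to 2 when leaving out a pool (2 without DMSO 6 hpf replicate 3). For the difference of effects they were 8 (random block), 18 (each array), 2 (trend and robust options) and 0 to 3 when leaving out a pool (2 without DMSO 6 hpf replicate 3, 3 without TDCIPP 6 hpf replicate 2). For 6 against 2 hpf in DMSO embryos, the 20856 clusters with 1 gene symbol gave 10485 calls (3557 higher, 6928 lower). In TDCIPP embryos they gave 10595 (3781 higher, 6814 lower). Lower calls thus outnumbered higher ones among these clusters, while all 61240 gave 12264 higher and 12178 lower calls in DMSO embryos. A minimum signal of 5 gave 7515 higher calls in DMSO and 7786 in TDCIPP embryos. Both settings tested fewer clusters, and what else moved these counts was not tested. Several uncalled differences turned sign, and the cause was not tested. At 2 hpf these were gsc (-0.047 with array 1 alone, and -0.13 to 0.18 when leaving out a pool), noto (0.12 with array 2 alone, -0.11 to 0.020), dharma (0.044 with array 2 alone, -0.16 to 0.020) and the dim lhx1a row (-0.24 with array 2 alone, -0.022 to 0.052). At 6 hpf they were dharma (-0.076 with array 2 alone, -0.066 to 0.18 when leaving out a pool), lhx1a (-0.12 to 0.37), dkk1b (0.064 with array 2 alone, -0.37 to 0.090) and mixl1 (0.0026 with array 2 alone). Medians of 3 lists at 6 hpf also turned sign when leaving out a pool, those of the Wnt and β-catenin (-0.053 to 0.035), Nodal (-0.026 to 0.089) and secreted protein lists (-0.016 to 0.15), while those of the other transcription factors (0.00078 to 0.25) and the ventral genes (-0.49 to -0.37) did not. For the difference of effects they were dharma (-0.12 with array 2 alone) and lhx1a (0.17 with array 2 alone, 0.076 from the mean of both rows, and -0.34 to 0.15 when leaving out a pool).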

Other observations

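At 2 hpf, pools with the same replicate number stood in the same order in both treatments for dharma, where replicate 2 was the highest (5.08 in DMSO, 4.99 in TDCIPP) and replicate 3 the lowest (4.71 and 4.68). The same held for the brighter lhx1a row, with replicate 3 the highest (5.71 and 5.91) and replicate 2 the lowest (5.12 and 5.17). For gsc, replicate 1 was the highest in both (5.19 and 5.06), but the other two were not in the same order. For noto the order differed, with replicate 3 the lowest DMSO pool (3.73) and the highest TDCIPP pool (4.00). At 6 hpf, replicate 1 was again the highest pool of gsc in both treatments (8.22 and 8.50) and replicate 2 that of lhx1a (8.85 and 8.90), while the lowest pools had different numbers in DMSO and TDCIPP for both genes. For noto and dharma, replicate 2 was the highest DMSO pool at 6 hpf (9.86 and 6.17) and replicate 3 the highest TDCIPP pool (10.08 and 6.17). For the dim lhx1a row these were replicate 2 (3.84) and replicate 1 (4.11). No test was made of these orders.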
